A study of Homo sapiens with 40 samples.

Results

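FOLH1, STEAP1, STEAP2, PSCA and CD276 encode cell surface antigens of prostate cancer against which antibodies, radioligands or engineered T cells have been developed. These 5 genes, of 11853 genes tested, are described here across LNCaP lines that respond to the antiandrogen MDV3100 (enzalutamide) and clones that resist it. Each gene was read from the brightest array probe set that the platform annotation pairs with that gene alone. All 5 had such a probe set above the filter on dim signals, which kept probe sets with a mean signal of at least 12.1. The data are 40 Affymetrix arrays of LNCaP, an androgen-responsive human prostate cancer line. Control 1 bears the title D+E-, control 2 D+R- and control 3 M+R-. These 3 lines are labelled sensitive, and the 7 resistant clones are numbered 1, 9, 10, 14, 15, 19 and 24. All lines were grown in RPMI-1640 with 10% FCS, and 300K cells were seeded and left 3 days before 24 h in 10 µM MDV3100 or in 0.1% DMSO, its solvent. The groups held 6 control DMSO, 6 control MDV3100, 14 clone DMSO and 14 clone MDV3100 arrays, with replicates 1 and 2 for each line and treatment. Each resistant line is 1 clone, the control titles are not explained, and the labels do not say that replicates were separate cultures. Most tests took the line as the replicate, so their p-values measure spread between lines. How independent the lines are of each other is not stated. The drug response of the control lines over both replicates was tested against spread among arrays within a line, so its p-values may measure only technical spread.

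FOLH1, also called PSMA, is a membrane carboxypeptidase that cleaves glutamate from folates and from a neuropeptide. STEAP1 and STEAP2 belong to a family of membrane proteins with a haem-binding domain; STEAP2 reduces iron and copper, and STEAP1 lacks the part that binds NADPH. PSCA is a small protein of the Ly6/uPAR family held to the membrane by a lipid anchor, and CD276, also called B7-H3, is an immune checkpoint ligand of the B7 family. In prostate cancer cells, androgen is known to repress FOLH1, and it induces the secreted kallikreins KLK2 and KLK3, the protease gene TMPRSS2 and the chaperone gene FKBP5. An antiandrogen blocks the androgen receptor, so these last genes show whether a culture answered the drug.

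The arrays with the same label did not always behave alike. KLK2 in replicate 1 changed by -2.30 to -1.78 (log2, MDV3100 minus DMSO) in the 3 control lines, but also by -2.60 in clone 9, -2.46 in clone 10 and -2.20 in clone 14. In replicate 2 it changed by -2.31 in control 1, -0.85 in control 3 and 0.09 in control 2, and by -0.56 to 0.25 in the 7 clones. Each culture was then matched over all genes to the cultures of the other replicate, after each gene's mean over all cultures was subtracted. The replicates were not centred separately, so a shift between them enters these matches. In this matching 0 of 10 replicate 2 cultures and 1 of 10 replicate 1 cultures were most like the culture of their own label. The replicates were therefore read as 2 sets of arrays, and the antigens' differences are given below for both together and for each alone. A change between sets touched 26.3% of all genes (limma, adjusted p under 0.05, as in every call below), but 0 of the 5 antigens passed that test. The luminal markers of the prostate were present, with 6 of 6 measured markers above the filter and a summed signal of 6161 to 12074 in control arrays and 5664 to 13458 in clone arrays. Of the measured basal and leukocyte markers 0 passed the filter, and the basal keratin KRT5 had a median signal of 1.3. For each of 3 other cell types 1 marker passed it, and COL1A1, the only fibroblast marker to do so, was lower in clones under MDV3100 by 0.61 (log2) and passed the test there. By replicate it was called in replicate 1 alone, and the difference in replicate 2 was -0.21. VWF, the endothelial marker above the filter, was called lower in clones in replicate 1, by 1.59 in DMSO and 1.31 in MDV3100, and differed by -0.10 and 0.03 in replicate 2. The part of these genes in the results below was not tested.

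Over the 40 arrays 4 of the antigens stayed within about a 2-fold range of signal. The highest signal was 1.80 times the lowest for FOLH1, 1.70 for STEAP1, 2.03 for STEAP2 and 2.09 for CD276. PSCA, whose signals are dim, spanned 4.34-fold, more than the 3.31-fold of FKBP5. On the log2(signal + 16) scale used for every difference, the standard deviation over all arrays was 0.22 for FOLH1, 0.21 for STEAP1, 0.22 for STEAP2, 0.19 for PSCA and 0.22 for CD276. The median gene had 0.31, and between 10.5% and 19.0% of genes had a smaller standard deviation than an antigen. KLK2 had 1.22 and TMPRSS2 0.62. The comparison with all genes was not matched for brightness, and FOLH1, STEAP1, STEAP2 and CD276 were brighter than 86.1% to 99.3% of probe sets. The part of brightness in their small spread was not tested. On this scale the added 16 exceeds the typical PSCA signal and so compresses its spread. When the 10 lines were ordered by their mean signal over 4 arrays, the gap between neighbours was smaller than the larger of their standard deviations for 9 of 9 neighbouring pairs, for each of the 5 genes. Those standard deviations mix both treatments and both replicates, and neighbours in a sorted order lie close. The count therefore cannot tell whether the lines differ.

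**Figure D1:**
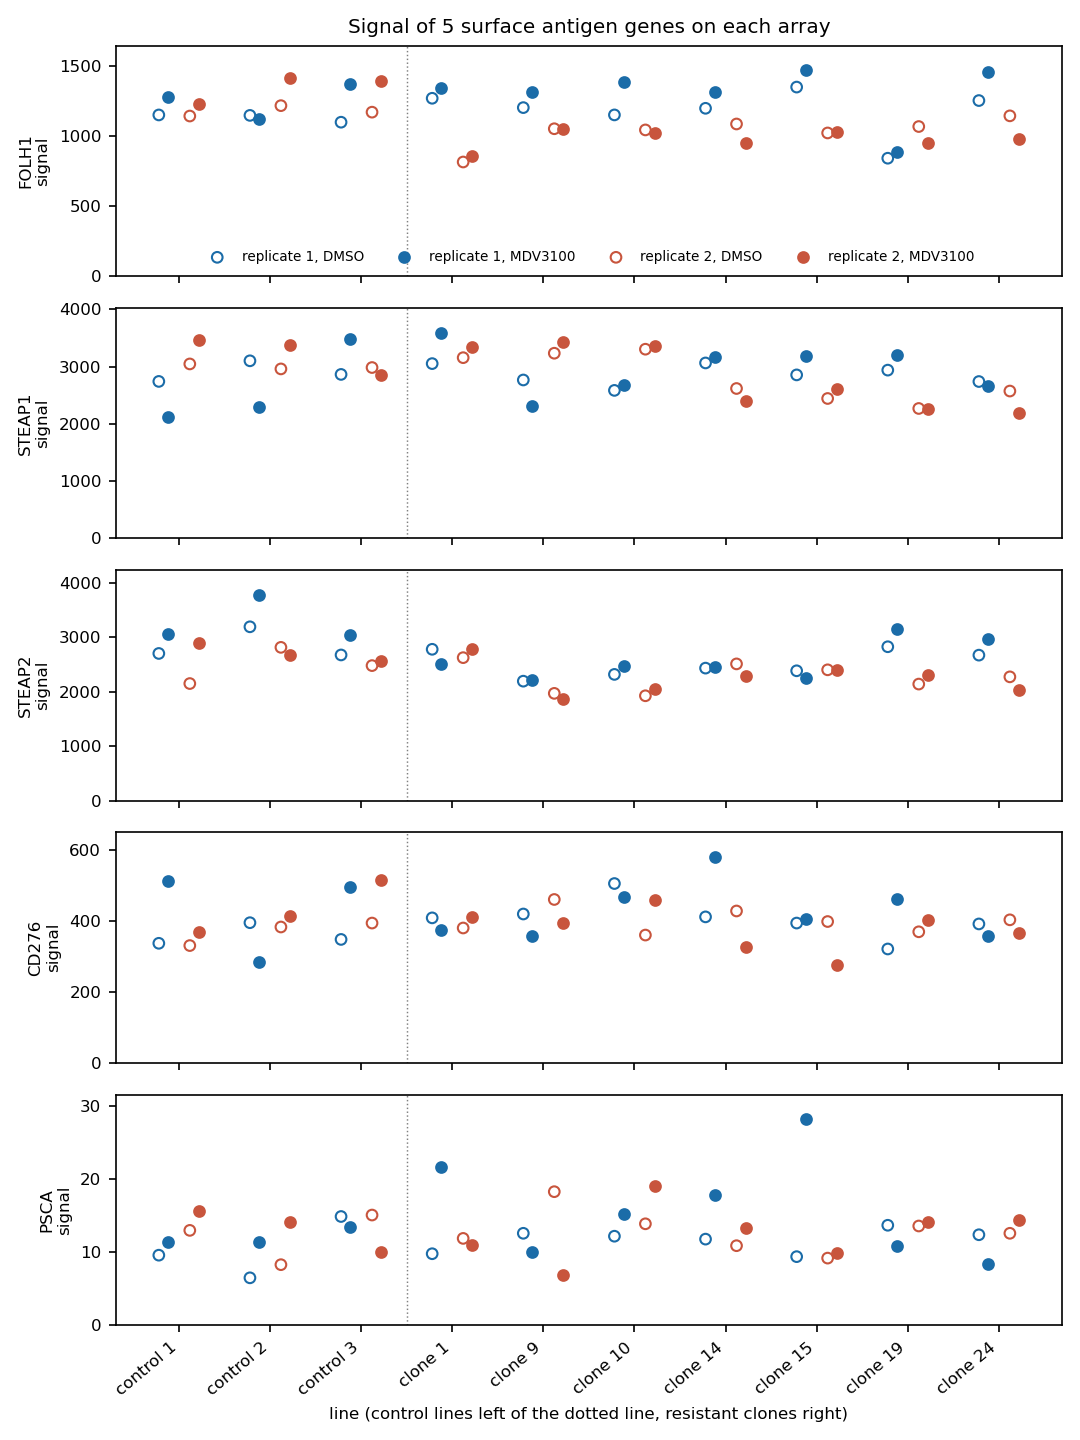
Array signal (linear, vertical axis from 0) of the 5 antigen genes in each of the 10 lines (horizontal axis). Open circles are DMSO and filled circles MDV3100, blue is replicate 1 and red replicate 2, with 1 array per circle; FOLH1 in the replicate 2 MDV3100 arrays of the 7 clones lies between 859 and 1049, below all 3 control lines.

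FOLH1 was bright in every line, between 814 and 1470 (median 1149, n = 40 arrays). In replicate 1 the DMSO signals of control 1, 2 and 3 were 1150.3, 1147 and 1099, and the MDV3100 signals were 1276, 1122 and 1374. In replicate 2 they were 1143, 1217 and 1170.2 in DMSO and 1229.6, 1416 and 1393 in MDV3100. The drug response was thus positive in 5 of 6 control pairs, with a fitted change of 0.17 ± 0.09 (SE; limma adjusted p = 0.80; 0.14 and 0.19 by replicate). In the clones the replicates parted. Replicate 1 clones ran from 841 to 1349 in DMSO (median 1203) and from 884 to 1470 in MDV3100 (median 1344), and the response was positive in 7 of 7 clones, at 0.14 ± 0.06 (adjusted p = 0.20). Replicate 2 clones ran from 814 to 1144 in DMSO (median 1052) and from 859 to 1049 in MDV3100 (median 977), and 2 of 7 responses were positive, at -0.07 ± 0.05 (adjusted p = 0.67). Clone minus control response was -0.13 ± 0.08 (adjusted p = 0.46), and by replicate it was 8.1e-05 ± 0.12 and -0.26 ± 0.10, neither of which was called. Whether the response differed between the replicates was not tested.

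Under MDV3100, FOLH1 was lower in the clones than in the control lines in replicate 2. The 7 clone arrays had a mean signal of 978 ± 64.6 (SD) and the 3 control arrays 1346 ± 102, and the groups did not overlap. The share of all genes without overlap was not counted, here or for the counts of clones below or above all control lines given later. The difference was -0.46 ± 0.11 (SE), with an interval of -0.69 to -0.22 and adjusted p = 0.023, in a comparison where 12.4% of all genes were called lower and 19.6% in either direction. In replicate 1 the clone and control means were 1310.1 and 1257, the difference was 0.05 ± 0.16 (adjusted p = 0.86), and the groups overlapped. The 2 replicates differed from each other in this contrast by -0.50 ± 0.19 (adjusted p = 0.043), in a test that called 34.8% of all genes. In DMSO they differed by -0.24 ± 0.17 (adjusted p = 0.30), where 23% of genes were called. Both of these tests took single arrays as replicates and did not pair the 2 arrays of a line. Over both replicates the MDV3100 difference between clones and control lines was -0.20 ± 0.10 (adjusted p = 0.20). The ratio of 3' to 5' actin signal, a measure of RNA integrity, was lower on most of the replicate 2 MDV3100 arrays of the clones. The 3' to 5' actin ratio on the replicate 2 MDV3100 arrays was 3.36 to 3.95 in the control lines, 2.59 to 3.08 in 6 clones and 3.71 in clone 1. The GAPDH ratio on those arrays overlapped, at 1.25 to 1.27 in the control lines and 1.19 to 1.31 in the clones. On the replicate 2 DMSO arrays the GAPDH ratio was 1.29 to 1.36 in the control lines and 1.17 to 1.25 in the clones. The actin ratio on the DMSO arrays overlapped, at 3.30 to 3.70 and 2.69 to 3.48. The part of these ratios in the FOLH1 difference was not tested. The replicate 2 call was lost without control 2 (-0.42, adjusted p = 0.085) and without control 3 (-0.43, adjusted p = 0.076). It was kept without control 1 or any 1 clone (adjusted p = 0.0062 to 0.047). Of all genes, 2326 were called with every line in, 242 without control 2, 47 without control 3 and 4737 without clone 1. The replicate 2 pair of control 2 lacked the KLK2 fall. In the matching over all genes that culture was most like clone 1 among the replicate 1 cultures (r = 0.75). With its own label it had r = -0.33, a value for departures from each gene's mean that takes in the shift between replicates. The part of this likeness in the FOLH1 difference was not tested.

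Clone 19 in replicate 1 and clone 1 in replicate 2 stood below the other clones. Their FOLH1 signals were 841 in DMSO and 884 in MDV3100 for clone 19, and 814 and 859 for clone 1. The other 6 clones of replicate 1 had 1151 to 1349 in DMSO. These 2 cultures, which carry different labels, were also each other's closest match across the replicates over all genes (r = 0.74, a description across genes).

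The 3 probe sets that the annotation pairs with both FOLH1 and its near-identical relative FOLH1B cannot tell the 2 genes apart. In replicate 2 they showed the clones below all 3 control lines in both treatments. Their differences there were -0.58, -0.54 and -0.45 in DMSO (adjusted p = 0.029, 0.032 and 0.044, where 10.3% of genes were called) and -0.77, -0.76 and -0.66 in MDV3100 (adjusted p = 0.020, 0.018 and 0.015). In replicate 1 they were higher in clones by 0.11 to 0.15 in DMSO and by 0.25 to 0.37 in MDV3100, and 0 of 3 passed the test. The probe set paired with FOLH1B alone differed by -0.33 ± 0.16 in replicate 2 MDV3100 arrays (adjusted p = 0.14). The FOLH1 probe set in DMSO differed by -0.19 ± 0.12 in replicate 2 (adjusted p = 0.25), with 6 of 7 clones below all 3 control lines.

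STEAP1 and STEAP2 lie near each other on chromosome 7, and RefSeq's table for build GRCh38.p14 holds their promoters, as it does for 3 of the 5 antigens. They are shown because the levels of the 2 genes did not move together across the arrays (r = 0.0053 over 40 arrays within replicates, a description). Each line gives the 250 bases before the RefSeq start on the plus strand, chr7:90154219-90154468 for STEAP1 and chr7:90211490-90211739 for STEAP2, with matches to the searched motifs in capitals.
STEAP1: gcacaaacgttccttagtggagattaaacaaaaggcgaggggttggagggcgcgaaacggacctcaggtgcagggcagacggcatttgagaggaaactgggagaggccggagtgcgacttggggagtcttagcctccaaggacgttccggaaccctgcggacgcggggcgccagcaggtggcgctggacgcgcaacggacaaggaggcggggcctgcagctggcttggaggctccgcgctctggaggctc
STEAP2: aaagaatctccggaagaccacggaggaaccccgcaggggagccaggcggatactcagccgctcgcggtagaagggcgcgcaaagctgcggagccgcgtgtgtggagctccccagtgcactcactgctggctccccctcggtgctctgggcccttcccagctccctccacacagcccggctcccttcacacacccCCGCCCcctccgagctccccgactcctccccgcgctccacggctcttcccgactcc
A set of 4 motifs was searched on both strands: AGAACA, the core that steroid receptors such as the androgen receptor bind, GGGCGG (the GC box), TATAAA (the TATA box) and CCAAT. This STEAP2 window held 1 GGGCGG match on the minus strand, and STEAP1 held 0 matches to any of the 4 motifs. RefSeq lists a further STEAP2 start downstream of this one, whose 250 bases held 1 TATAAA and 2 CCAAT matches and 0 of the other motifs. Over 35116 promoter windows of this length, 12.4% held AGAACA, 42.6% GGGCGG, 10.7% TATAAA and 32.0% CCAAT. The GC content was 64.4% for STEAP1 and 69.6% for STEAP2.

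STEAP1 ranged from 2120 to 3595 (median 2901). In replicate 1 its signals in control 1, 2 and 3 were 2741, 3101 and 2863 in DMSO and 2120, 2295 and 3477 in MDV3100. In replicate 2 they were 3046, 2959 and 2983 in DMSO and 3461, 3381 and 2851 in MDV3100. The control lines therefore went opposite ways in the 2 replicates: control 1 and 2 had lower signals with the drug in replicate 1 and higher ones in replicate 2, and control 3 the reverse. The ratio of 3' to 5' actin signal, a measure of RNA integrity, was 4.26, 6.59 and 4.50 on the replicate 1 control MDV3100 arrays and 4.08, 3.18 and 4.12 on their DMSO arrays. The highest ratio belonged to control 2, where STEAP1 changed by -0.43 (log2) and STEAP2 by 0.24. In the same replicate STEAP1 changed by -0.37 in control 1 and by 0.28 in control 3. The part of the ratio in these changes was not tested. The fitted control response was -0.04 ± 0.14 (adjusted p = 0.99; -0.17 and 0.10 by replicate) and that of the clones 0.02 ± 0.05 (adjusted p = 0.88; 0.05 and -0.01). The difference of the 2 responses was 0.05 ± 0.09 (adjusted p = 0.82; 0.22 and -0.11). The clones ran from 2268 to 3303 in DMSO (median 2810.3) and from 2192 to 3595 in MDV3100 (median 2922), around the control medians of 2971 and 3116. The clones differed from the control lines by -0.07 ± 0.08 in DMSO (adjusted p = 0.61; -0.02 and -0.11 by replicate) and by -0.01 ± 0.11 in MDV3100 (adjusted p = 0.95; 0.20 and -0.23). In replicate 2, clones 1, 9 and 10 had DMSO signals of 3155, 3233 and 3303, above all 3 control lines, and clones 14, 15, 19 and 24 had 2617, 2443, 2268 and 2573, below them.

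STEAP2 ranged from 1865 to 3779 (median 2475). Under the drug its clones lay mostly below the control lines in both replicates. With MDV3100 the signals in control 1, 2 and 3 were 3056, 3779 and 3042 in replicate 1 and 2894, 2675 and 2561 in replicate 2. The 7 clones had 2223 to 3142 (median 2470.3) in replicate 1 and 1865 to 2777 (median 2288) in replicate 2. In each replicate 6 of 7 clones lay below all 3 control lines, the exceptions being clone 19 in replicate 1 and clone 1 in replicate 2. The fitted difference was -0.32 ± 0.10 (SE; interval -0.53 to -0.10; adjusted p = 0.062), against a background of 8.96% of all genes called, and so missed the threshold. Replicate 1 alone gave -0.36 ± 0.14 (adjusted p = 0.12), replicate 2 alone -0.28 ± 0.13 (adjusted p = 0.14). It passed after quantile normalization (-0.37, adjusted p = 0.047), with a variance trend (adjusted p = 0.033) and without clone 1 (-0.34, adjusted p = 0.030). Without control 2 it was -0.27 (adjusted p = 0.19), and without clone 9, 10 or 14 it was -0.28, -0.30 and -0.31.

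In DMSO the STEAP2 difference was smaller. The control signals were 2702, 3192 and 2675 in replicate 1 and 2149.9, 2814 and 2479 in replicate 2. The clones had 2194 to 2826 (median 2433) in replicate 1 and 1926 to 2625 (median 2273) in replicate 2, and both sets of groups overlapped. The fitted difference was -0.16 ± 0.10 (adjusted p = 0.34; -0.18 and -0.13 by replicate). With the drug the control lines changed by 0.17 ± 0.12 (adjusted p = 0.86; positive in 5 of 6 pairs; 0.20 and 0.13 in the replicates). The clones changed by 0.01 ± 0.04 (adjusted p = 0.94; positive in 8 of 14 pairs; 0.03 and -0.01). The difference of the 2 responses was -0.16 ± 0.08 (interval -0.33 to 0.02; adjusted p = 0.39; -0.17 and -0.15 in the replicates). Clones 9 and 10 had the lowest means over 4 arrays, 2063 ± 174 and 2192 ± 247 (SD), and control 2 the highest, 3115 ± 493.4.

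PSCA was dim. Its signal ran from 6.5 to 28.2 (median 12.5), and 50.2% of all probe sets were dimmer, which put it just inside the filter. In DMSO the controls had 9.6, 6.5 and 14.9 in replicate 1 and 13, 8.3 and 15.1 in replicate 2, and the clones 9.2 to 18.3 (median 12.3). In MDV3100 the controls had 11.4, 11.4 and 13.5, then 15.7, 14.1 and 10.1, and the clones 6.9 to 28.2 (median 13.7). The groups overlapped in both treatments and both replicates. The response was 0.08 ± 0.11 in control lines and 0.08 ± 0.08 in clones (adjusted p = 0.95 and 0.65). By replicate it was 0.11 and 0.06 in control lines and 0.18 and -0.02 in clones. The clones differed from the control lines by 0.06 in DMSO (0.08 and 0.04 by replicate) and 0.06 in MDV3100 (0.16 and -0.04), with adjusted p = 0.72 and 0.75 over both. Clone minus control response had an interval of -0.32 to 0.32, did not pass the test, and was 0.08 and -0.08 by replicate. The brightest PSCA array was clone 15 with MDV3100 in replicate 1, at 28.2, whereas the same label in replicate 2 gave 9.9.

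CD276 ran from 277 to 579.7 (median 395). Its DMSO signals in control 1, 2 and 3 were 337, 395 and 348 in replicate 1 and 331, 383 and 394 in replicate 2. With MDV3100 they were 512, 283 and 497 in replicate 1 and 369, 413 and 516 in replicate 2. CD276 was thus higher with the drug in 5 of 6 control pairs, and lower in control 2 of replicate 1, the array with the actin ratio of 6.59. The fitted control response was 0.21 ± 0.14 (interval -0.10 to 0.52; adjusted p = 0.86; 0.21 in each replicate). Without control 2 it was 0.40 (adjusted p = 0.52). Clone signals ran from 321 to 505 in DMSO (median 401) and from 277 to 579.7 in MDV3100 (median 398), and 6 of 14 clone responses were positive, at -0.02 ± 0.07 (adjusted p = 0.92; 0.06 and -0.09 by replicate). Clone minus control response was -0.22 ± 0.14 (adjusted p = 0.49; -0.14 and -0.31). In DMSO 8 of 14 clone arrays lay above all 6 control arrays. By replicate, 4 of 7 clones lay above all 3 control lines in each, and 1 of 7 lay below them in replicate 1. The difference in DMSO of 0.14 ± 0.08 did not pass the test (adjusted p = 0.33), and was 0.16 and 0.11 by replicate. In MDV3100 the difference was -0.09 ± 0.13 (adjusted p = 0.70; 0.02 and -0.20). The 2 other CD276 probe sets were dim, with mean signals of 19.4 and 4.4, and their values stand in the closing section.

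Of the 5 antigens 0 were called in the control response, where 0.101% of all genes were, 0 in the clone response, where 0.506% were, and 0 in the difference of the responses, where 0.717% were. The same count of 0 held within each replicate alone, where 1.18% and 0.118% of genes were called in the control response, 1.89% and 0% in the clone response, and 0.00844% and 0% in their difference. The largest single response was 0.80, for PSCA in clone 15 of replicate 1, where the signal went from 9.4 to 28.2. Among the other 4 antigens it was 0.58, for CD276 in control 1 of replicate 1. KLK2 changed by -1.98 ± 0.17 in the control lines of replicate 1 (adjusted p = 0.00026) and TMPRSS2 by -1.42 ± 0.19 (adjusted p = 0.0044), and both passed the test there. Over both replicates they changed by -1.50 and -1.05 and did not pass it (adjusted p = 0.15 and 0.33). In the difference of the responses, FKBP5 (0.52 ± 0.09, adjusted p = 0.031) and TMPRSS2 (0.85 ± 0.17, adjusted p = 0.044) were called over both replicates. In single replicates the difference was 0.36 and 0.67 for FKBP5 and 0.97 and 0.72 for TMPRSS2, and was not called. The intervals of the control responses of FOLH1, STEAP1, STEAP2 and CD276 lay between -0.35 and 0.52.

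**Figure D2:**
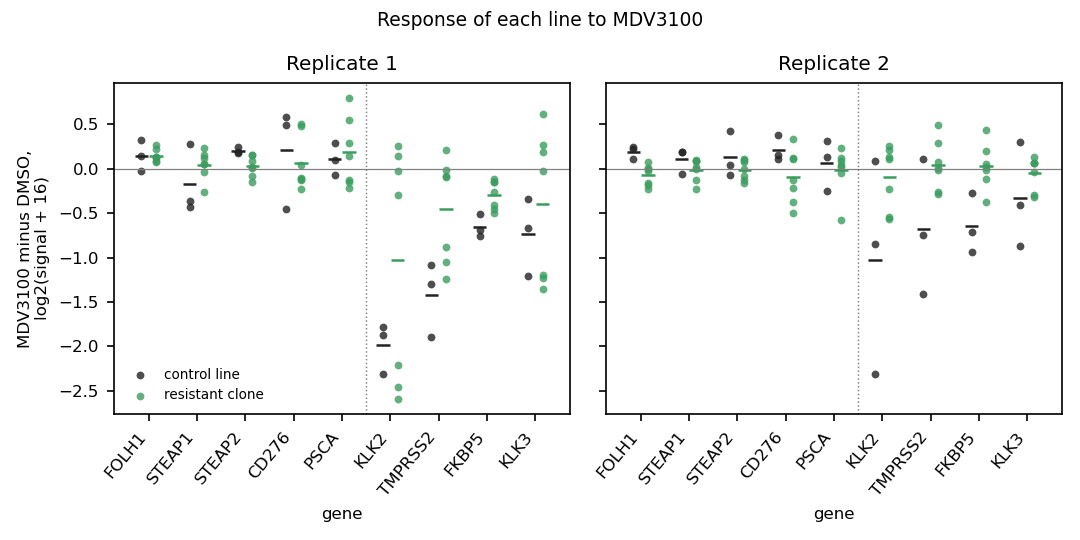
MDV3100 minus DMSO on the log2(signal + 16) scale (vertical axis) for the 5 antigens and 4 androgen-induced genes (horizontal axis), in replicate 1 (left) and replicate 2 (right). Each point is 1 line, black for control lines and green for resistant clones, and bars are means; the means of the antigens lie nearer 0 than that of KLK2 in control lines, and KLK2 reaches -2.31 in control lines and -2.60 in clones of replicate 1.

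Between clones and control lines, 0 of 5 antigens were called in DMSO, where 0.118% of all genes were, and 0 of 5 in MDV3100 over both replicates, where 8.96% were. Within the replicates alone, 0 of 5 were called in DMSO, where 6.12% and 10.3% of genes were. In MDV3100 0 of 5 were called in replicate 1, where 9.01% of genes were, and 1 of 5, FOLH1, in replicate 2, where 19.6% of genes were, so the antigens' share was near the background. The median of the 5 differences was -0.07 in DMSO and -0.09 in MDV3100, and that of all genes was -0.01 in each.

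**Figure D3:**
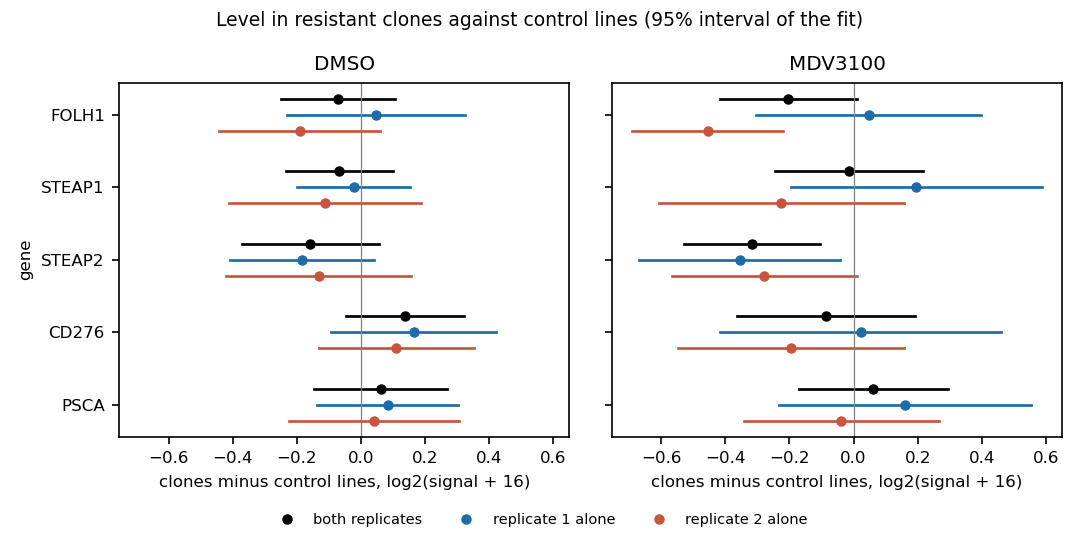
Fitted difference, clones minus control lines, on the log2(signal + 16) scale (horizontal axis) for each antigen (vertical axis) in DMSO (left) and MDV3100 (right). Points are estimates and bars their 95% intervals, for both replicates (black), replicate 1 (blue) and replicate 2 (red); FOLH1 at -0.46 in replicate 2 with MDV3100 is the value that passed the test, and the STEAP2 points in MDV3100 lie between -0.36 and -0.28.

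Relatives of the antigens were taken from family lists. Of the FOLH1 family 4 of 4 had a named probe set and 3 passed the filter, of the STEAP family 3 had one and 2 passed, of the Ly6/uPAR family 7 and 3, and of the B7 family 8 and 3. Of these families 0 members were called over both replicates in either drug response, in their difference, or in the DMSO or MDV3100 levels, where 0.101%, 0.506%, 0.717%, 0.118% and 8.96% of all genes were. Within single replicates the calls stand against 6.12% of all genes in DMSO replicate 1, 10.3% in DMSO replicate 2 and 19.6% in MDV3100 replicate 2. NAALADL2, a relative of FOLH1, was lower in clones in replicate 1 DMSO arrays, at 118 against 295 (-1.29 ± 0.26, adjusted p = 0.023), and at 133 against 107 in replicate 2 (not called). STEAP3, the ferrireductase of red cell precursors, was lower in clones in replicate 2 MDV3100 arrays, at 58.4 against 121 (-0.89 ± 0.15, adjusted p = 0.012), and at 118 against 94.4 in replicate 1 (not called). ICOSLG, the ligand of the T cell costimulator ICOS, was lower in clones in replicate 2 in DMSO (-0.71 ± 0.13, adjusted p = 0.019) and in MDV3100 (-0.63 ± 0.20, adjusted p = 0.045), with 0.30 and 0.36 in replicate 1 (not called). NCR3LG1, also called B7-H6 and a ligand of a natural killer cell receptor, was lower there in MDV3100, at 295 against 559 (-0.86 ± 0.18, adjusted p = 0.019), with 0.02 in replicate 1. The test of whether clone minus control differences changed between the replicates, given above for FOLH1, was fitted for all genes. Its values for these relatives were not read, so no such change is claimed for them. Between the replicates, STEAP4 was higher in replicate 2 by 0.88 and LY6E by 0.44, and NCR3LG1 lower by 0.64, where 26.3% of all genes were called.

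Other surface antigens of carcinomas were also measured, and 19 of 22 with a named probe set passed the filter, STEAP4 again among them. EGFR, the receptor of epidermal growth factor, fell in the clones with the drug, from 207 to 172 (-0.24 ± 0.04, adjusted p = 0.046), the 1 call among the 19 in the clone response, against 0.506% of all genes. By replicate it was -0.27 and -0.22, and neither was called. ERBB2, the receptor HER2, was lower in the clones under MDV3100, at 472 against 642 (-0.59 ± 0.17, adjusted p = 0.047), the 1 call in those levels, against 8.96% of all genes. In replicate 2 alone it was called, with 289.9 in clones and 655 in controls (-1.24 ± 0.29, adjusted p = 0.023). In replicate 1 the values were 654 and 629.9 (0.07 ± 0.17, adjusted p = 0.81). In the control response, the difference of responses and the DMSO levels 0 of 19 were called over both replicates. In DMSO levels of replicate 1, SLC44A4 was called higher (0.94) and EGFR (-0.45) and ROR1 (-0.38) lower, where 6.12% of all genes were called, and in replicate 2 0 of 19 were. In MDV3100 levels CDH3 (-1.78) and ROR1 (-1.09) were called lower in replicate 1, where 9.01% of genes were. In replicate 2 it was ERBB2 and SLC44A4 (-0.54), where 19.6% were. Between the replicates 26.3% of all genes were called. Of the 19, 1 was called higher in replicate 2, the STEAP4 shift given above, and 3 lower, namely ERBB2 (-0.84), CD24 (-0.77) and ERBB3 (-0.35).

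The genes whose levels followed each antigen most closely over the 40 arrays, after each replicate was centred, were found by Pearson's r among all genes. For FOLH1 they were TAF6L (r = 0.90), PTK7 (0.82) and GNAI1 (0.80). For STEAP1 they were FAF2 (0.93), HSPA4 (0.92) and TKT (0.92), and for STEAP2 NRIP1 (0.85), MED13 (0.85) and XPNPEP3 (0.84). CD276 and PSCA had looser company, with TNNC1 (0.66) and CDK5 (0.63) nearest to CD276 and PAX8 (0.68) and RAB3IL1 (0.66) nearest to PSCA. Among the antigens themselves r lay between -0.32 and 0.26 over the 10 pairs. These values are descriptions: the arrays share lines, and each best r was picked from 11853 genes.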

How the data were processed

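The authors deposited 1 linear signal intensity per probe set and array. The submitters' processing notes name MAS5 and no version. Every array had a mean intensity of 150 once the top and bottom 2% of probe sets were dropped, so arrays were not normalized again. All columns were matched to samples by identifier, and groups came from the titles. Signals were converted to log2(signal + 16), which understates changes of dim genes. A probe set was kept if its mean was at or above the median probe set (27338 of 54675), and each gene was read from its brightest probe set paired with that gene alone in the platform annotation. In that annotation 41097 probe sets had 1 gene, 1801 several and 11777 none.

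Tests used limma 3.58.1 in R 4.3.3 with Benjamini-Hochberg adjustment over 11853 genes, and an adjusted p under 0.05 was a call. The control response over both replicates came from 12 arrays, blocked by line and not paired by replicate. The clone response, the difference of responses, the levels in DMSO and in MDV3100 and the shift between replicates took the line as the replicate. The test of replicate by group took single arrays, 20 in each treatment, without pairing the arrays of 1 line. The fits were tested on simulated data. The members and the gene lists were chosen with earlier results of these data known, so the lists give no independent support. Of each list the genes named are those called, up to 4 with the largest differences. Arrays of 1 line with the same replicate number belong together: in 20 such DMSO and MDV3100 pairs, departures from group means had r = 0.48 to 0.87 across genes. Alternatives were another pseudocount, no filter, quantile normalization, a variance trend, other probe sets, arrays as replicates, a replicate block, and each replicate or line left out. The fits of replicate 2 without each line, the test of replicate by group and the probe sets shared with FOLH1B were added after seeing the data. Precision is limited by the number of lines, with 3 control lines and 7 clones, and by the number of arrays of each. Promoters came from RefSeq, GRCh38.p14. List members with no named probe set were not analysed here.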

Additional observations from a re-analysis of the deposited data

Results flagged for a closer look

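In 4 of the 45 groups of antigen values checked, 1 sample lay far from the others by Dixon's criterion, which chance meets in about 1 in 20 groups. FOLH1 in clone 19 of replicate 1 was at log2 9.744 in DMSO and 9.813 in MDV3100, below the other 6 clones of that replicate. FOLH1 in clone 1 of replicate 2 was at log2 9.698 in DMSO, below the other 6 clones there. The PSCA response of clone 9 in replicate 2 was -0.583, below the other 6 clones, and it rests on signals of 18.3 in DMSO and 6.9 in MDV3100.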

How the results depend on the processing

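Of 485 values of antigens under alternatives, 424 kept their direction and side of the threshold, 6 gained a call and 55 changed sign, 40 of these when a replicate or line was left out. The causes were not tested. With a pseudocount of 1, the PSCA shift between replicates was 0.00086. Quantile normalization gave clone responses of -0.047 for STEAP1, -0.024 for STEAP2 and 0.0066 for CD276, and shifts between replicates of -0.0021 for STEAP1 and 0.0089 for PSCA. The CD276 probe set with mean 19.4 gave -0.043 in the control response, 0.16 in the clone response, 0.21 in their difference, 0.29 in the MDV3100 levels and 0.33 between replicates (adjusted p = 0.032), and the dimmest one gave 0.053 in the clone response and 0.057 between replicates. In the difference of responses, 2 probe sets shared with FOLH1B gave 0.032 and 0.016.

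With a replicate or line left out, the values that changed sign ranged as follows. The control response ran from -0.17 to 0.10 for STEAP1 and from -0.023 to 0.20 for PSCA. The clone response ran from -0.074 to 0.14 for FOLH1, -0.011 to 0.045 for STEAP1, -0.013 to 0.029 for STEAP2, -0.018 to 0.18 for PSCA and -0.094 to 0.063 for CD276. The difference of responses ran from -0.26 to 8.1385e-05 for FOLH1, -0.11 to 0.22 for STEAP1 and -0.12 to 0.11 for PSCA. DMSO levels ran from -0.19 to 0.047 for FOLH1 and -0.042 to 0.16 for PSCA. MDV3100 levels ran from -0.46 to 0.047 for FOLH1, -0.23 to 0.20 for STEAP1, -0.038 to 0.16 for PSCA and -0.23 to 0.039 for CD276. Shifts between replicates ran from -0.039 to 0.057 for STEAP1 and -0.028 to 0.037 for PSCA. The STEAP2 shift between replicates (-0.19, adjusted p = 0.057) passed with no filter (adjusted p = 0.038) and without clone 1 (-0.22, adjusted p = 0.043).

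Over all genes, limma called 12 in the control response, 60 in the clone response, 85 in the difference of responses, 14 in DMSO levels, 1062 in MDV3100 levels and 3120 between replicates. In the order clone response, difference and DMSO levels, a pseudocount of 1 gave 23, 11 and 7, and a variance trend 0 (1872 at unadjusted p under 0.05), 34 and 75. With no filter the first 2 were 20 and 26. Quantile normalization gave 30 in the clone response and 35 in DMSO levels. Line differences gave 718 in the control response, and arrays as replicates 0 in the clone response (317 at unadjusted p under 0.05). With each pair or replicate number as a replicate block there were 306, 162, 0 (1415 at unadjusted p under 0.05), 213 and 441 calls in the first 5 comparisons, and 0 antigens changed their call; STEAP2 in MDV3100 levels had adjusted p = 0.061. With a replicate or line left out, counts ran from 0 to 140, 0 to 239, 0 to 109, 0 to 2126, 8 to 2326 and 1796 to 3706 in the order given first. The shift between replicates could not be fitted with 1 replicate left out.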
